A study of Mus musculus with 7 samples.

Results

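The 10 genes described here make lactate, carry it across membranes and decide whether pyruvate enters the mitochondrion: Ldha, Ldhb, Slc16a1, Slc16a3, Slc16a7, Bsg, Mpc1, Pdha1, Pdk1 and Pdk2. They were chosen by name for these roles, and every H3K18La peak that the deposited annotation assigns to one of them was taken. This gave 24 of the 108253 peaks of the series, 12 in promoters and 12 outside them, and each gene had at least 1 promoter peak. H3K18La is histone H3 lactylated at lysine 18, and it was mapped by CUT&Tag, in which an antibody brings a transposase to the mark so that DNA beside it is tagged and sequenced. The study's methods name a protein A-Tn5 transposase, while the sample labels name protein A-MNase, a nuclease, for the same step. The study asked how this mark is spread over the genome as the mouse retina matures. Groups were retinas of C57Bl/6J mice at postnatal day 4 (P4, 2 libraries), day 10 (P10, 2 libraries) and day 28 (P28, 3 libraries), each made from dissociated cells. The series calls the assays biologically replicated, but the labels tie no library to an animal or litter, so p-values measure only the spread between these libraries.

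Lactate dehydrogenase is a tetramer of A and B subunits, encoded by Ldha and Ldhb, that interconverts pyruvate and lactate. A-rich forms are known from tissues that ferment glucose to lactate, B-rich forms from tissues that burn lactate. Lactate crosses membranes through monocarboxylate transporters: MCT1 (Slc16a1), MCT4 (Slc16a3, a low-affinity exporter of glycolytic cells) and MCT2 (Slc16a7, a high-affinity carrier), and MCT1 and MCT4 need the glycoprotein basigin (Bsg) to reach the membrane. Pyruvate that is not reduced enters mitochondria through the carrier that MPC1 forms with MPC2. There the pyruvate dehydrogenase complex, whose catalytic alpha subunit is Pdha1, turns it into acetyl-CoA unless kinases such as PDK1 and PDK2 switch it off by phosphorylation. The mature retina is known for aerobic glycolysis: its photoreceptors release much lactate even when oxygen is present, and loss of basigin makes mice lose photoreceptor function.

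A peak's level is given as RPKM (reads per kilobase of peak, scaled to the library size the authors normalised to). Depth varied widely: P10 replicate 1 held 199970 reads in peaks and P28 replicate 2 held 8274373, so that 3 reads in a peak of 1 kilobase equal 5.42 RPKM in the former and 0.18 RPKM in the latter. Batch 2 consisted of P28 replicate 1 alone. All 7 promoters with a peak on a list of rod photoreceptor markers were higher at P28 than at P4 by the test used below, beside 33.4% of all promoters. Their summed levels were 11.6 to 16.8 RPKM at P4, 88.4 to 102.1 at P10 and 103.1 to 157.1 at P28. In whole retina, more cells that carry the mark and more mark per cell cannot be told apart, and the part of the growing rod population in the results below was not tested.

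Sequences of 250 bases before a RefSeq start (GRCm38.p6) were in the table used for 8 of the 10 genes, Bsg and Slc16a7 being the others. Those of 5 genes are shown: Ldha, Slc16a1 and Pdk2 because their promoters gained the mark by P10, Slc16a3 because its start lies in a promoter peak with few reads before P28, and Ldhb as the counterpart of Ldha. They lie at chr7:46845554-46845803 (Ldha, plus strand), chr3:104638414-104638663 (Slc16a1, plus strand), chr11:95041372-95041621 (Pdk2, minus strand), chr11:120948817-120949066 (Slc16a3, plus strand) and chr6:142507958-142508207 (Ldhb, minus strand), each inside a promoter peak of its gene. Capitals mark matches on either strand to the GC box GGGCGG, to the cores ACGTG and GCGTG of hypoxia-inducible factor sites, and to the E-box CACGTG, which holds ACGTG on both strands so that each E-box counts as 2 matches of that core.
Ldha: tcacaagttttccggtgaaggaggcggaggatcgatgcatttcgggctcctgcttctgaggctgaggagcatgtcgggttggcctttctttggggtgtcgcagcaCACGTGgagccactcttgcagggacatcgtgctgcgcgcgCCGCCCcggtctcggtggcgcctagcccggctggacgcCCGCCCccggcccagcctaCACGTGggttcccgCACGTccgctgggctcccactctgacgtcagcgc
Slc16a1: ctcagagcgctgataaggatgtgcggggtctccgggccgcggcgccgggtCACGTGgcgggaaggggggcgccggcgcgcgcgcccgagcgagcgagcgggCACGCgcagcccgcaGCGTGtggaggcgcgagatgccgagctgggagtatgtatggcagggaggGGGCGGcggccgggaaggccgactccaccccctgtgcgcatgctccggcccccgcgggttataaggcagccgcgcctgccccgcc
Pdk2: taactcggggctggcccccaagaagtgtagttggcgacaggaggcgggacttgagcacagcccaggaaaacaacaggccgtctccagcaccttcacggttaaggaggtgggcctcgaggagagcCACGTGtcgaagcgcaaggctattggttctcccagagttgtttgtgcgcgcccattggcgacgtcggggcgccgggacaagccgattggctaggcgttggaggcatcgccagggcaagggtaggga
Slc16a3: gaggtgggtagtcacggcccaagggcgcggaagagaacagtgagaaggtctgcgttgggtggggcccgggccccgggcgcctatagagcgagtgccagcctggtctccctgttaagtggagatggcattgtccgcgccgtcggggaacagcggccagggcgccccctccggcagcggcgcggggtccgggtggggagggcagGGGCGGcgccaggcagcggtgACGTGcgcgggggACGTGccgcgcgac
Ldhb: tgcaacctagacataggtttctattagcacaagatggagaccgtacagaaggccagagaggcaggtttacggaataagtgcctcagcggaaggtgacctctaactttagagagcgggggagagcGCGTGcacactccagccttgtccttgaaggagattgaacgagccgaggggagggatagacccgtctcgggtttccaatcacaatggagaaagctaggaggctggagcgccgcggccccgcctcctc

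The table held 12 such windows for the 8 genes (2 each for Ldha, Mpc1, Pdk1 and Pdk2), and a gene was counted if any of its windows matched, among these genes and among all 27025 genes of the table alike. CACGTG was found in 3 of the 8 genes (Ldha, Slc16a1 and Pdk2), against 6.9% of all genes, or in 3 of 12 windows against 6.0% of all 32851 windows. Of the 3 genes, Ldha held 2 copies of it. ACGTG was found in the same 3 genes and in Slc16a3, which is 4 of 8 genes against 18.5%, or 4 of 12 windows against 16.6%. GCGTG was found in 6 of 8 genes against 30.9%, or 6 of 12 windows against 28.2%, with Ldha counted through its second window, which is not shown. GGGCGG was found in 5 of 8 genes against 35.4%, or 6 of 12 windows against 32.7%. Letters of the photoreceptor homeodomain site, TAATCC, occurred in 1 gene, in that second window of Ldha, against 7.2% of genes, and TATAAA in none of the 8 against 14.3%. In the central 300 bases of the promoter peaks of all 10 genes, CACGTG was found in 0 of 10 (7.1% of all promoter peaks), ACGTG in 4 (23.4%), GCGTG in 5 of 10 (49.5%) and GGGCGG in 7 (56.4%). At the peak centres GCGTG was thus near its share in all promoter peaks. For CACGTG, at a share of 7.1%, 0 of 10 cannot show whether an excess was present. The windows before the starts were set against all genes of the table, not only those with a promoter peak. Matches in the windows and at the peak centres thus have different backgrounds. These are matches of letters in a fixed window, counted over at most 10 genes and without a test.

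Of the 10 promoter peaks, 6 rose from P4 to P28 (Ldha, Slc16a1, Slc16a3, Bsg, Mpc1 and Pdk2) and none fell, at a limma adjusted p under 0.01 over all peaks. Among all 9956 protein-coding genes with a promoter peak, 33.4% rose by the same rule, and among all peaks 23.1% changed in either direction. The median difference in log2(RPKM + 1) was 1.70 for the 10 genes and 1.35 for all promoters. By P10, 4 promoters had risen (Ldha, Slc16a1, Bsg and Pdk2), against 11.6% of all promoters, while 18.7% of all peaks had changed in either direction. Medians were then 0.82 for the 10 genes and 0.54 for all promoters. From P10 to P28 none of the 10 passed the threshold, as only 0.00185% of all peaks did. An unadjusted p under 0.05 was found for 5 of the 10 and for 3935 of all 9956 promoters. The count from P4 to P28 was 3 without P4 replicate 1, P28 replicate 2 or P28 replicate 3, where 9.33%, 13.0% and 12.8% of all promoters rose, and 3 (Slc16a1, Bsg and Pdk2) after libraries were scaled to their reads in peaks, where 7.29% did. The count from P4 to P10 was 2 without P10 replicate 2 or any P28 library, 1 without P4 replicate 1, and 0 without P4 replicate 2 or after that scaling. In those fits 2.46% (that scaling) to 11.6% (without P10 replicate 2) of all promoters rose. From P10 to P28, 2 of the 10 passed without P10 replicate 2 (Ldhb and Bsg), the same share as the 20.0% of all promoters that rose in that fit. The values of each gene by library are in the plot of promoter levels.

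**Figure D1:**
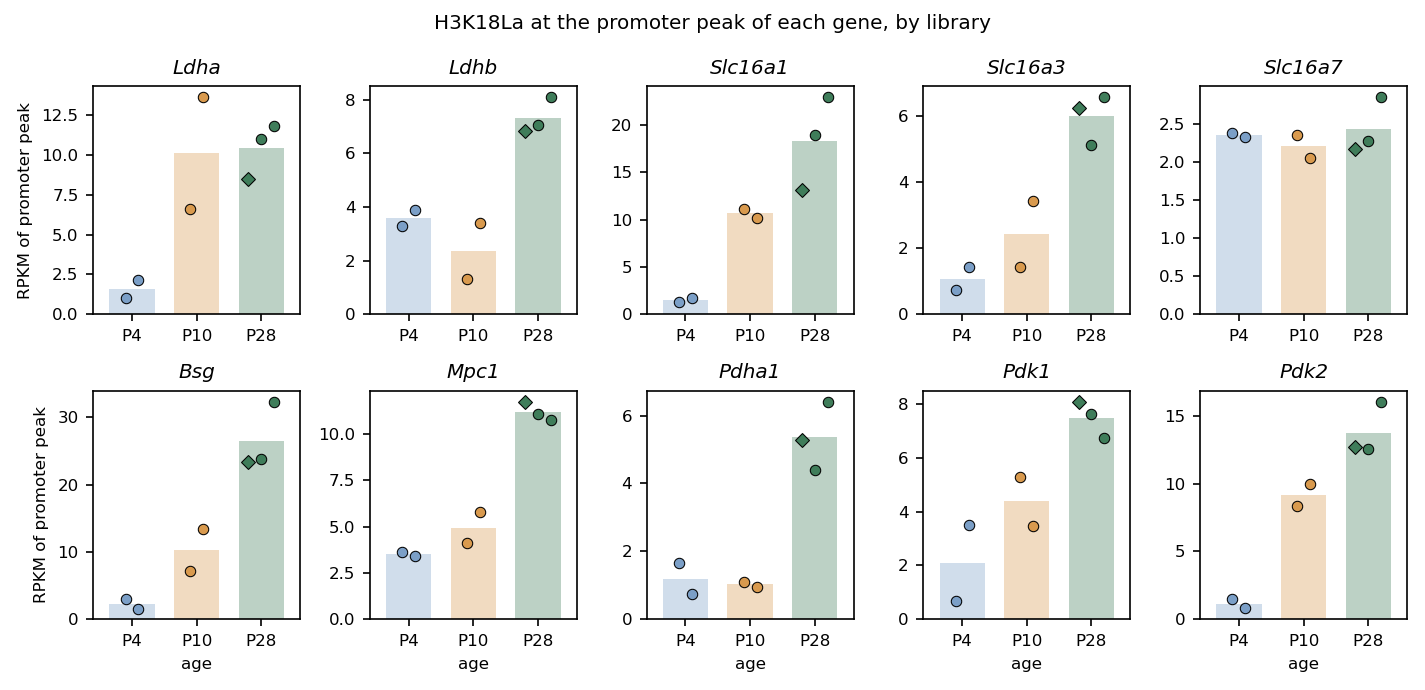
RPKM of the promoter peak (vertical axis, linear from 0, a separate scale for each gene) in every library at P4, P10 and P28. Points are libraries, diamonds mark the library of batch 2 and bars are means; the P28 libraries lie above both P4 libraries in 9 of the 10 genes, Slc16a7 being the exception.

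Every P28 library was above every P4 library at 9 of the 10 promoters, which was also so for 79.8% of all promoters. Every P10 library was above every P4 library at 6 (46.1% of all promoters), and every P28 library above every P10 library at 8 (55.1%). Gains were thus common among promoters at large, and their size depended on the scale. Between P4 and P28 the median peak of the series differed by 0.68 with the deposited library sizes and by -0.29 when libraries were scaled to their reads in peaks, and the median promoter by 1.35 and 0.30. Relative to the median promoter, the change from P4 to P28 was 1.74 for Bsg, 1.59 for Slc16a1, 1.44 for Pdk2 and 0.81 for Ldha. It was 0.42 for Slc16a3, 0.09 for Mpc1, -0.49 for Ldhb and -1.32 for Slc16a7. Bsg, Slc16a1 and Pdk2 passed the threshold from P4 to P28 under all 18 other settings tried, Ldha under 13, Mpc1 under 9 and Slc16a3 under 8.

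Ldha, which encodes the A subunit of lactate dehydrogenase, carried a promoter peak of 2193 bases (chr7:46844959-46847151) over 11 annotated transcript starts and untranslated first exons. It held 1.04 and 2.18 RPKM in the P4 libraries (13 reads together), 6.59 and 13.7 RPKM in the P10 libraries, and 8.49, 11.04 and 11.8 RPKM in the P28 libraries. Both later ages lay above P4 with no overlap, and the P10 values straddled those of P28. The mean was 1.61 ± 0.81 RPKM (SD, n = 2) at P4, 10.1 ± 5.00 (n = 2) at P10 and 10.5 ± 1.74 (n = 3) at P28, a 6.51-fold gain by P28. The pooled ratio of P28 to P4 was 7.09, with a 95% counting interval of 4.11 to 13.4. The difference in log2(RPKM + 1) was 2.05 ± 0.42 (SE) from P4 to P10 (limma adjusted p = 0.00506) and 2.16 ± 0.38 from P4 to P28 (adjusted p = 0.00191). Scaled to reads in peaks these were 1.09 (adjusted p = 0.0362) and 1.02 (adjusted p = 0.0285), and both calls were lost. Between P10 and P28 it was 0.11 ± 0.38 (adjusted p = 0.863), with the sign turning under 2 other scalings (-0.07 and -0.17), so 95% of the log2 distance between P4 and P28 was present at P10. Without P4 replicate 1, P4 replicate 2, P28 replicate 2 or P28 replicate 3 the adjusted p from P4 to P28 was 0.0317, 0.0148, 0.0131 and 0.0129. From P4 to P10 it lay between 0.0126 and 0.0466 without any 1 library other than P10 replicate 1.

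In all 5 P10 and P28 libraries the strongest of the 24 peaks was not a promoter but an intergenic peak of 1314 bases upstream of Ldha (chr7:46838516-46839829). It ends 1646 bases before the annotated start of the gene and 5975 bases before the RefSeq start, and it overlaps no annotated gene. Its level was 5.19 and 5.00 RPKM at P4, 35.7 and 48.6 RPKM at P10, and 27.4, 29.3 and 33.7 RPKM at P28. Those P4 values already put it at the 97.6 and 95.7 percentile of peaks outside promoters in their libraries, and in the 5 later libraries it was between the 99.3 and 99.6 percentile. Both P10 libraries stood above all P28 libraries, and all 5 stood far above P4. The difference in log2(RPKM + 1) was 2.81 ± 0.28 from P4 to P10 (adjusted p = 0.000427) and 2.35 ± 0.25 from P4 to P28 (adjusted p = 0.000215), both past the threshold under all 16 other settings, though at 1.60 and 0.95 when scaled to reads in peaks. Over the step from P10 to P28 it was -0.46 ± 0.25 (adjusted p = 0.23), which did not pass, and the range over the other settings was -0.74 to -0.23. In every library this peak was denser than the promoter, by 2.29 to 5.42 times. Its central 300 bases (chr7:46839023-46839322, plus strand, GRCm38) are shown for that reason, and they held none of the 6 letter motifs searched.
Ldha upstream: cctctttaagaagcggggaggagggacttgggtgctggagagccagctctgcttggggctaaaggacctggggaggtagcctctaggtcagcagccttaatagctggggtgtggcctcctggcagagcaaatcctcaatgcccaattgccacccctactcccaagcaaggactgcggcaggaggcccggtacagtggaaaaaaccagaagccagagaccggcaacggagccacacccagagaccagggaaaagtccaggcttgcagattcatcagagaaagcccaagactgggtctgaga

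Ldhb, the B subunit, had a promoter peak (chr6:142506997-142508381) that covered 2 annotated starts and an untranslated exon. Levels were 3.28 and 3.88 RPKM at P4, 1.30 and 3.42 RPKM at P10 (1 and 6 reads), and 6.82, 7.06 and 8.11 RPKM at P28. The P10 libraries overlapped those of P4, and the P28 libraries were above all others. None of the comparisons passed the threshold. The difference in log2(RPKM + 1) was -0.52 ± 0.41 from P4 to P10 (adjusted p = 0.364), 0.86 ± 0.37 from P4 to P28 (adjusted p = 0.0863) and 1.38 ± 0.37 from P10 to P28 (adjusted p = 0.039). The sign from P4 to P28 turned with the scale, to -0.45 after scaling to reads in peaks and -0.28 after quantile normalisation. Scaled to reads in peaks, Ldhb was the only one of the 10 promoters to pass from P4 to P10, at -1.65 (adjusted p = 0.00556), and without P10 replicate 2 it passed from P10 to P28 at 1.85 (adjusted p = 0.00416). Within its libraries Ldhb went from a mean percentile of 87.4 among protein-coding promoters at P4 to 42.0 at P10, and stood at 68.4 at P28.

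Ldhb had 1 other peak, intergenic and 22583 bases upstream (chr6:142530540-142531568), with another time course. It held 0 and 1 read at P4 (0 and 0.58 RPKM), 5.26 and 3.83 RPKM at P10 and 0.76, 0.84 and 0.50 RPKM at P28. Both P10 libraries were above all other libraries. It rose from P4 to P10, by 2.13 ± 0.46 on the log2(RPKM + 1) scale (adjusted p = 0.00639), a pooled ratio of 17.0 with a 95% counting interval of 2.28 to 755 because P4 had a single read. The call was lost without either P4 library or any P28 library, with adjusted p from 0.0162 to 0.0468, and scaled to reads in peaks (1.75, adjusted p = 0.0293). From P10 to P28 the difference was -1.70 ± 0.42 (adjusted p = 0.0297), and without P10 replicate 2 it passed at -1.89 (adjusted p = 0.00769).

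The ratio of Ldha to Ldhb within a library does not depend on how the library was scaled, apart from the pseudocount. As log2 of the ratio of (RPKM + 1), it was -1.07 and -0.62 at P4, 1.72 and 1.73 at P10, and 0.28, 0.58 and 0.49 at P28. Ldhb was the stronger promoter in both P4 libraries and Ldha in all 5 later ones, and the 3 ages did not overlap. The mean ratio was 2.57 higher at P10 than at P4 and 1.30 higher at P28 than at P4, and it was lower at P28 than at P10 by 1.27 (-1.27). Exact two-sided permutation tests gave the smallest p the design allows, 0.33 for 2 against 2 and 0.2 for 3 against 2 libraries, so no such ratio can pass 0.05; adjusted over 15 comparisons they were 0.416 and 0.375. At P10 the Ldhb side of the ratio rests on 7 reads. The plot of paired ratios shows these values beside those of the other pairs.

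**Figure D2:**
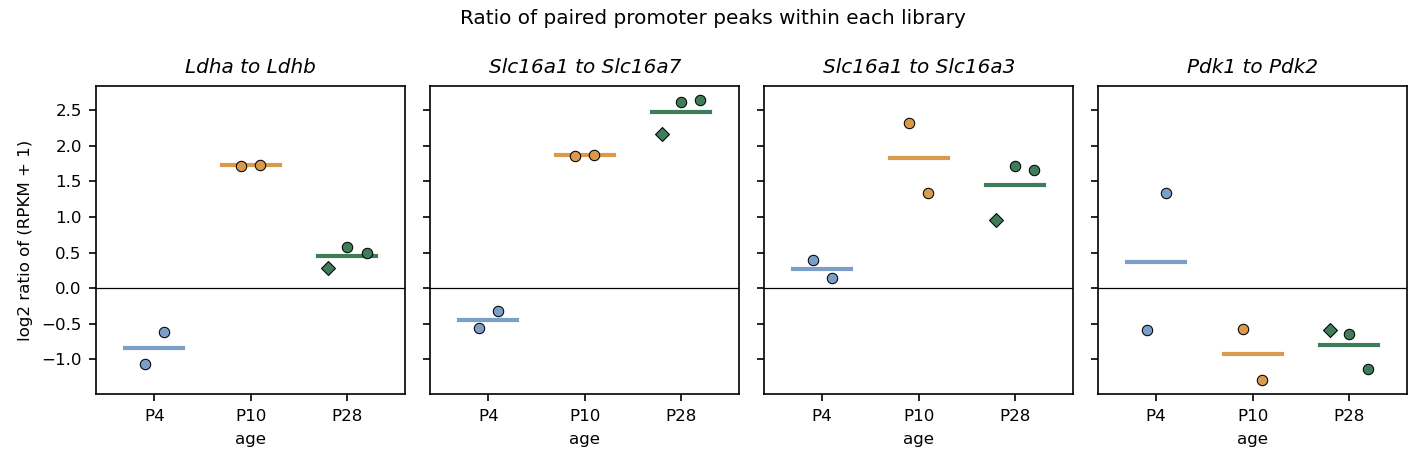
Log2 ratio of (RPKM + 1) between 2 promoter peaks of the same library (vertical axis) at P4, P10 and P28 for 4 pairs of genes. Points are libraries, diamonds mark the library of batch 2 and lines are means; the Ldha to Ldhb ratio is below 0 in both P4 libraries and above 0 in the 5 later libraries, as is Slc16a1 to Slc16a7.

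Of the 3 transporters, Slc16a1 (MCT1) had the largest gain at the promoter peaks used for the counts. Its promoter peak (chr3:104637742-104639521) covered the annotated start and an untranslated exon. Levels were 1.28 and 1.68 RPKM at P4 (5 reads each), 11.2 and 10.2 RPKM at P10, and 13.1, 19.0 and 23.0 RPKM at P28. The ages did not overlap and followed each other upward. Its mean went from 1.48 ± 0.28 RPKM (SD, n = 2) to 10.7 ± 0.69 (n = 2) and 18.4 ± 4.97 (n = 3), a 12.4-fold gain by P28. On the log2(RPKM + 1) scale the difference was 2.24 ± 0.34 from P4 to P10 (adjusted p = 0.00169) and 2.94 ± 0.31 from P4 to P28 (adjusted p = 0.000212), and 0.70 ± 0.31 from P10 to P28 (adjusted p = 0.154). The gain by P10 lost its call without P4 replicate 1 (adjusted p = 0.0164) or P4 replicate 2 (0.0132) and after scaling to reads in peaks (1.28, adjusted p = 0.0103). With the same scaling the gain by P28 was 1.78 (adjusted p = 0.00183).

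A second strong peak of Slc16a1 lay 5074 bases downstream of its start (chr3:104643742-104644426), in the class exon of the deposited annotation, where the GENCODE annotation has an intron of Slc16a1 holding the sense-intronic transcript Gm43581. It was at 1.99 and 1.74 RPKM at P4 (3 and 2 reads), 2.64 and 4.6 RPKM at P10 (1 and 4 reads), and 10.3, 14.1 and 17.9 RPKM at P28. The P28 libraries stood clear of all 4 earlier ones. It rose from P4 to P28 by 2.37 ± 0.35 on the log2(RPKM + 1) scale (adjusted p = 0.000858), a pooled ratio of 7.64 with a 95% counting interval of 3.23 to 23.7. The call was lost without P4 replicate 1 (adjusted p = 0.0139) or P4 replicate 2 (0.0159), and the value was 1.16 (adjusted p = 0.00986) scaled to reads in peaks. Between P4 and P10 the difference was 0.66 ± 0.39 (adjusted p = 0.226; -0.35 after scaling to reads in peaks), whereas the promoter of the same gene had by then 76.2% of its log2 gain. Between P10 and P28 it was 1.71 ± 0.35 (adjusted p = 0.0181), which passed only without P10 replicate 2 (2.02, adjusted p = 0.00392). The difference between the time courses of the 2 peaks was not tested.

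Slc16a3 (MCT4) had 2 adjoining promoter peaks. The one used for the counts above, the wider of the pair (chr11:120949920-120952437), held 0.72 and 1.42 RPKM at P4, 1.43 and 3.44 at P10, and 6.25, 5.13 and 6.58 at P28. All P28 libraries were above all others, and P10 replicate 1 was level with P4 replicate 2. It rose by 1.77 ± 0.41 on the log2(RPKM + 1) scale from P4 to P28 (adjusted p = 0.00773), a call lost without any 1 of the P4 or P28 libraries (adjusted p from 0.0292 to 0.0589) and after scaling to reads in peaks (0.76, adjusted p = 0.141). Over the step from P4 to P10 the difference was 0.69 ± 0.45 (adjusted p = 0.277; -0.15 after scaling to reads in peaks). The other peak (chr11:120948499-120949634) covers the RefSeq start and the sequence printed above. It held 0.40 and 0 RPKM at P4 (1 read in all), 1.59 and 0 RPKM at P10 (1 read in all), and 8.78, 5.41 and 5.78 RPKM at P28. It rose from P4 to P28 by 2.67 ± 0.52 (adjusted p = 0.00317), a pooled ratio of 26.4 with a counting interval of 4.67 to 1050, and without any 1 of the P4 or P28 libraries the adjusted p lay between 0.0165 and 0.0445, and scaled to reads in peaks it was 0.0194 (2.13). Over the step from P10 to P28 the difference was 2.22 ± 0.52 (adjusted p = 0.0256; 0.00856 without P10 replicate 1, and 0.00111 with voom on the recovered reads). Levels at the earlier ages were not detectable at this depth.

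Slc16a7 (MCT2) did not pass in any comparison at its promoter peak (chr10:125387781-125390083), which covered 2 annotated starts and overlaps the annotated transcript Gm47862. It held 2.37 and 2.33 RPKM at P4, 2.35 and 2.05 RPKM at P10, and 2.16, 2.27 and 2.85 RPKM at P28. All ages overlapped. In log2(RPKM + 1) P28 differed from P4 by 0.03 ± 0.39 (adjusted p = 0.958), and it turned to between -0.49 and -1.15 under the 3 other scalings. As other promoters gained, its mean percentile went from 69.7 at P4 to 40.6 at P10 and 18 at P28, with no overlap between ages. Slc16a7 also had the most peaks outside promoters, 4 in introns, at 0.25 to 9.01 RPKM where any read was found, and none of them passed in any comparison. In 2 of these intron peaks no read was found in either P10 library.

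Within libraries, the log2 ratio of Slc16a1 to Slc16a7 was -0.56 and -0.32 at P4, 1.86 and 1.87 at P10, and 2.16, 2.61 and 2.64 at P28. Slc16a7 was the stronger promoter in both P4 libraries and Slc16a1 in the other 5. That of Slc16a1 to Slc16a3 was 0.40 and 0.14 at P4, 2.32 and 1.33 at P10, and 0.96, 1.71 and 1.66 at P28, so Slc16a1 was the stronger in every library, and P10 and P28 overlapped. The comparisons of either ratio with P4, and that of Slc16a1 to Slc16a7 between P10 and P28, were without overlap and gave the smallest exact permutation p the design allows.

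Bsg, the partner of MCT1 and MCT4, reached the highest promoter level of the 10 genes. Its peak was the narrowest of the 10 promoter peaks, 764 bases (chr10:79704105-79704868) over 4 annotated starts and coding exon sequence. It held 2.97 and 1.56 RPKM at P4 (5 and 2 reads), 7.09 and 13.4 RPKM at P10 (3 and 13 reads), and 23.4, 23.8 and 32.3 RPKM at P28. The ages did not overlap. The mean rose from 2.27 ± 1.00 RPKM (SD, n = 2) at P4 to 26.5 ± 5.05 (n = 3) at P28, 11.7-fold, or by 3.09 ± 0.35 on the log2(RPKM + 1) scale (adjusted p = 0.000256), and by 1.84 (adjusted p = 0.00217) scaled to reads in peaks. From P4 to P10 it rose by 1.76 ± 0.38 (adjusted p = 0.00669), a call that was lost without any 1 library except P10 replicate 1 (adjusted p from 0.0142 to 0.0622) and after scaling to reads in peaks (0.70, adjusted p = 0.121). From P10 to P28 the difference was 1.33 ± 0.35 (adjusted p = 0.0354), and it passed without P10 replicate 2 (1.75, adjusted p = 0.00603). In the P28 libraries Bsg was at the 98.7, 98.4 and 99.2 percentile of protein-coding promoters. A second, exonic peak of Bsg (chr10:79708102-79708860) held 1.04 to 1.82 RPKM at P4 and P28 with no read at P10, and did not pass in any comparison. The start of a small nuclear RNA, Gm25794, lies within 1000 bases of the promoter peak, and reads from it cannot be told apart.

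**Figure D3:**
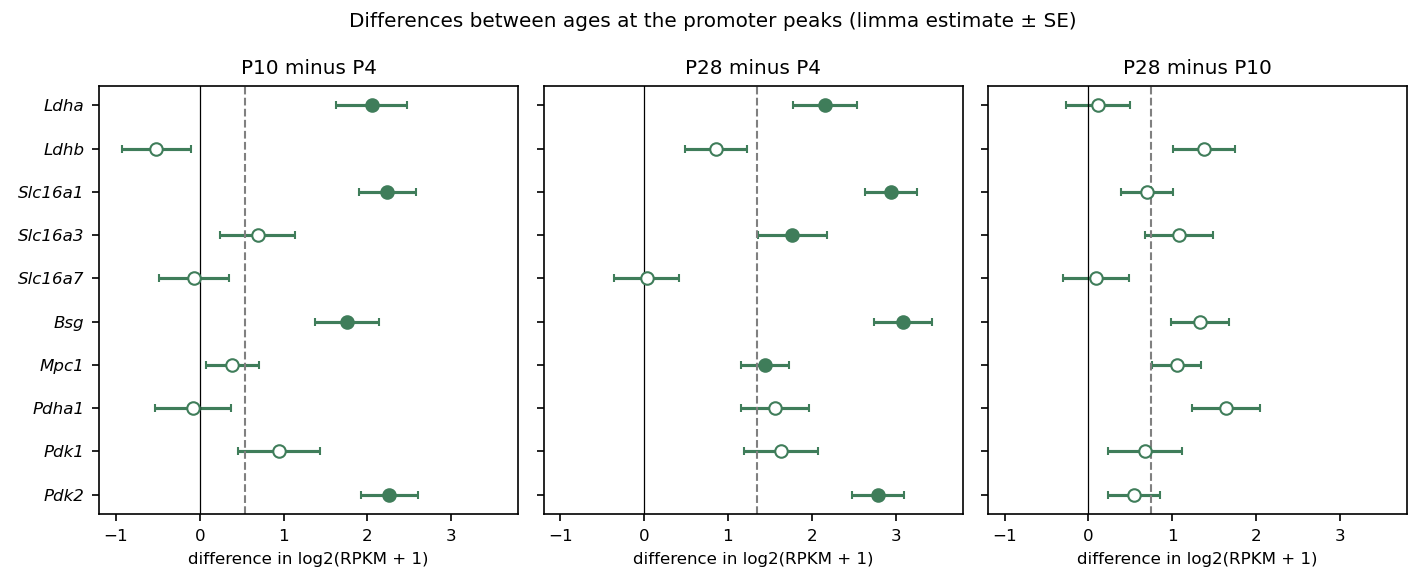
Difference in log2(RPKM + 1) between ages at each promoter peak (horizontal axis), from P4 to P10, P4 to P28 and P10 to P28. Points are limma estimates with bars of 1 SE, filled where the adjusted p was under 0.01, and the dashed line is the median of all protein-coding promoters (0.54, 1.35 and 0.74); Bsg, Slc16a1, Pdk2 and Ldha lie to its right in the first 2 panels and Slc16a7 and Ldhb to its left.

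Mpc1, a subunit of the mitochondrial pyruvate carrier, already had one of the better marked promoters at P4. Its peak (chr17:8282855-8284620) covered 6 annotated starts and coding exon sequence. It held 3.60 and 3.38 RPKM at P4, 4.09 and 5.80 RPKM at P10, and 11.7, 11.1 and 10.8 RPKM at P28. The ages did not overlap, and the P28 libraries lay close together (mean 11.2 ± 0.50, SD, n = 3). The gain by P28 was 1.44 ± 0.29 on the log2(RPKM + 1) scale (adjusted p = 0.00412), near the median of all promoters, and was 0.12 (adjusted p = 0.746) after scaling to reads in peaks. Without any 1 of the P4 or P28 libraries its adjusted p lay between 0.0159 and 0.0254. Between P4 and P10 the difference was 0.39 ± 0.32 (adjusted p = 0.389), negative after scaling to reads in peaks (-0.75) and after quantile normalisation (-0.58). As deposited, 27.1% of the log2 distance between P4 and P28 was present at P10. Its mean percentile was 86.6 at P4, 71.6 at P10 and 84.3 at P28, and both P10 libraries (68.4 and 74.9) lay below all others.

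Pdha1, the catalytic alpha subunit of pyruvate dehydrogenase, had a promoter peak (chrX:160137222-160138865) over 3 annotated starts and coding exon sequence. It held 1.66 and 0.73 RPKM at P4 (6 and 2 reads), 1.10 and 0.96 RPKM at P10 (1 and 2 reads), and 5.27, 4.41 and 6.41 RPKM at P28. The P10 libraries lay between the P4 libraries and all P28 libraries were above both. In log2(RPKM + 1) P28 was 1.56 ± 0.41 above P4 (adjusted p = 0.0136) and missed the threshold, which it passed without P10 replicate 1 (adjusted p = 0.00301) or P10 replicate 2 (0.00273). Between P10 and P28 it was 1.64 ± 0.41 (adjusted p = 0.0317), a pooled ratio of 4.98 with a counting interval of 1.68 to 24.3, and from P4 to P10 it was -0.08 ± 0.45 (adjusted p = 0.92).

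Of the kinases that switch Pdha1 off, Pdk2 rose and Pdk1 did not pass. Pdk2 (chr11:95040261-95041766, over 3 annotated starts and coding exon sequence) held 1.51 and 0.79 RPKM at P4 (5 and 2 reads), 8.39 and 9.95 RPKM at P10, and 12.7, 12.6 and 16.1 RPKM at P28. The ages did not overlap. It rose by 2.26 ± 0.34 from P4 to P10 on the log2(RPKM + 1) scale (adjusted p = 0.00156; 0.0116 without P4 replicate 2), and by 2.79 ± 0.31 from P4 to P28 (adjusted p = 0.000243), a 12-fold gain in the mean. Scaled to reads in peaks these were 1.37 (adjusted p = 0.0119), which no longer passed, and 1.72 (adjusted p = 0.00307). By P10, 80.8% of the log2 gain was present, and its mean percentile had gone from 36.3 to 89.6. A second promoter peak of Pdk2 at an inner start (chr11:95028884-95029494) held 0 to 1.95 RPKM and did not pass in any comparison, nor did 2 intron peaks.

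Pdk1 (chr2:71872705-71874064, over 6 annotated starts and coding exon sequence) held 0.67 and 3.51 RPKM at P4 (2 and 8 reads), 5.31 and 3.48 RPKM at P10 (4 and 6 reads), and 8.10, 7.64 and 6.73 RPKM at P28. The P4 libraries differed widely from each other and P4 replicate 2 was above P10 replicate 2. The P28 libraries were above all others. In log2(RPKM + 1) P28 was 1.63 ± 0.44 above P4 (adjusted p = 0.0157), and it passed without P4 replicate 2 (2.34, adjusted p = 0.00941), P10 replicate 1 (0.00571) or P10 replicate 2 (0.0052). It was 0.91 (adjusted p = 0.1) without P4 replicate 1 and 0.53 (adjusted p = 0.456) after scaling to reads in peaks. Within libraries the log2 ratio of Pdk1 to Pdk2 was -0.59 and 1.33 at P4, -0.57 and -1.29 at P10, and -0.59, -0.65 and -1.14 at P28. Pdk2 was the stronger in every library but P4 replicate 2, and the SD of the P4 libraries (1.36, n = 2) was larger than the difference of the means between P28 and P4 (-1.17). An intron peak of Pdk1 held 1 read or none in each P4 and P10 library.

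**Figure D4:**
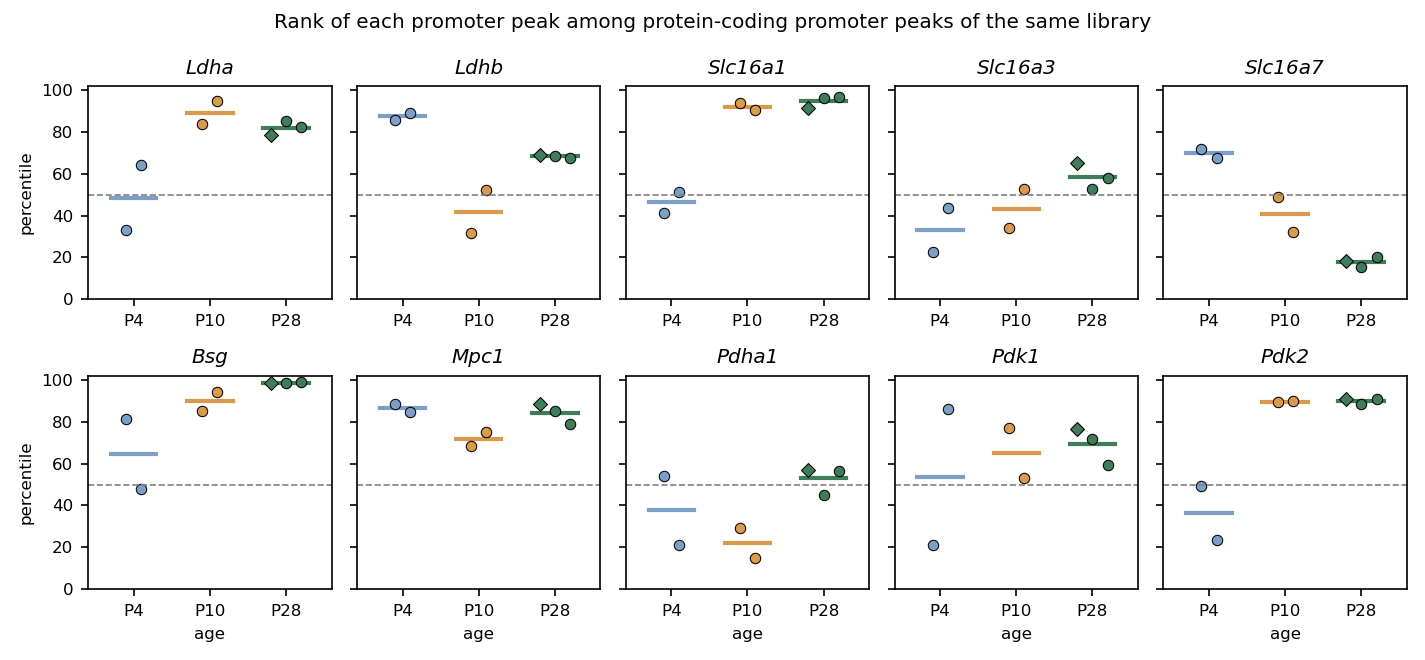
Percentile of each promoter peak within its library, over 9956 protein-coding genes with such a peak (vertical axis, 0 to 100) at P4, P10 and P28. Points are libraries, diamonds mark the library of batch 2, short lines are means and the dashed line is the middle rank; Slc16a1, Bsg and Pdk2 end near the top, and Slc16a7 drops from 69.7 to 18.

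Ranks within a library do not depend on its scale, and the plot of percentiles shows that the order of the members changed. At P4 the order of mean percentiles was led by Ldhb (87.4), Mpc1 (86.6) and Slc16a7 (69.7). P4 replicates 1 and 2 differed, with Pdk1 at 20.9 and 86.2, Bsg at 81.5 and 48.0, and Ldha at 33.1 and 64.1. Bsg stood above Slc16a7 (71.7) in P4 replicate 1, and Pdk1 above Slc16a7 (67.8) and Mpc1 (84.5) in P4 replicate 2. The P4 order was thus not the same in both libraries. At P28 the order of mean percentiles was led by Bsg (98.8), Slc16a1 (94.8) and Pdk2 (90.1), with Mpc1 (84.3) and Ldha (81.9) next, and Mpc1 and Ldha overlapped. The median over the 10 genes was 51.6 and 57.7 at P4, 72.8 and 63.9 at P10, and 77.6, 78.5 and 73.3 at P28. P28 was above P10 and P10 above P4 in every library, and the exact permutation p was the smallest possible in each comparison (0.33 or 0.2).

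Of the log2 distance between P4 and P28, the share present at P10 was 95% for Ldha, 80.8% for Pdk2, 76.2% for Slc16a1, 58.7% for Pdk1, 56.9% for Bsg, 38.9% for Slc16a3 and 27.1% for Mpc1, and -5.1% for Pdha1. With P10 replicate 1 alone these shares were 73.0% for Ldha, 73.9% for Pdk1, 43.4% for Bsg, 14.3% for Slc16a3 and 12.6% for Mpc1, and with P10 replicate 2 alone 117.1%, 43.5%, 70.4%, 63.4% and 41.6%. In both libraries Ldha, Slc16a1 and Pdk2 were at or above 73.0% and Mpc1 and Pdha1 at or below 41.6%. The P4 libraries moved the share of Pdk1 to 26.1% without P4 replicate 1 and 71.3% without P4 replicate 2, while that of Pdha1 became 12.4% and -31.3% and that of Slc16a3 29.0% and 46.3%. Scaled to reads in peaks the shares of Ldha, Pdk2 and Slc16a1 were 106.5%, 79.8% and 71.8%, those of Bsg and Pdk1 were 38.1% and 8.8%, in the reverse order, and the P10 means of Slc16a3, Mpc1 and Pdha1 lay below those of P4. These shares are descriptions with no test, and limma passed none of the promoters from P10 to P28.

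**Figure D5:**
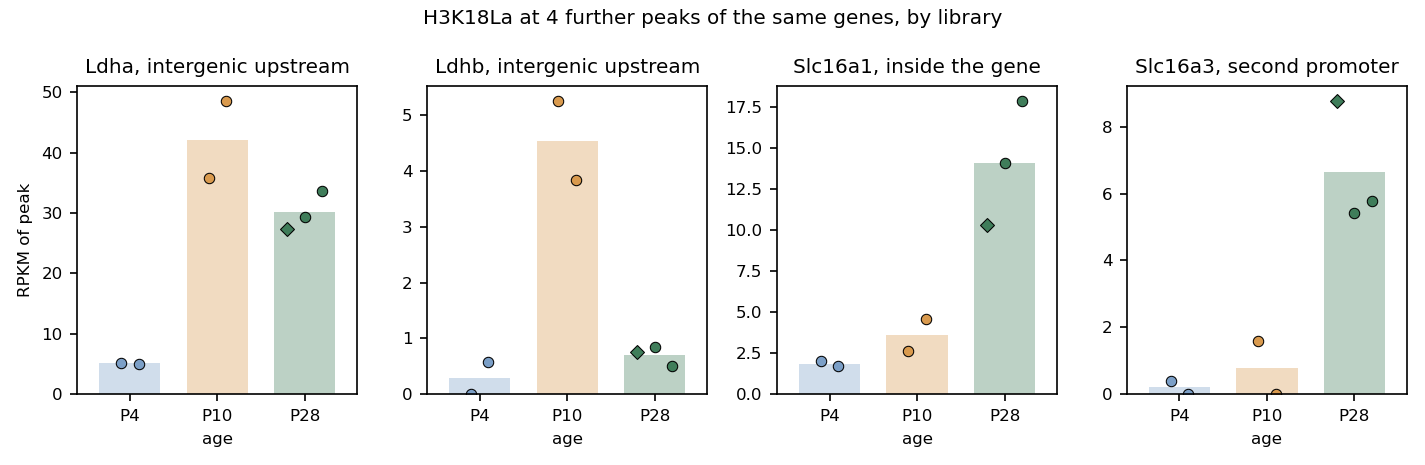
RPKM (vertical axis, linear from 0, a separate scale for each peak) in every library at the 4 peaks other than the main promoter peaks that passed the threshold in at least 1 comparison. Points are libraries, diamonds mark the library of batch 2 and bars are means; both intergenic peaks are highest in the P10 libraries, while the Slc16a1 and second Slc16a3 peaks are high in the P28 libraries alone.

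Over all 24 peaks, 9 rose from P4 to P28 and 6 from P4 to P10, against 18.9% and 11.4% of all peaks of the series. None of the 24 fell, and none passed from P10 to P28. Over that step 11 had an unadjusted p under 0.05, as had 35202 of all 108253 peaks. There voom on the recovered reads called 1 higher, the second Slc16a3 promoter peak, and 1 lower. Among all peaks voom called 2.17% higher and 6594 of 108253 lower. Outside promoters, 2 of 12 peaks rose from P4 to P28 and 2 from P4 to P10, the Ldha upstream peak in both, against 16.6% and 11.1% of all peaks outside promoters, so these shares are near the background. Over all 24 peaks the counts were 4 to 6 and 1 to 3 when any 1 of the P4 or P28 libraries was left out (5.21 to 11.5% and 2.59 to 7.08% of all peaks), and 5 and 1 after scaling to reads in peaks (7.17% and 4.35%). When the reads of all peaks of a gene were summed and tested over 25400 gene symbols, 8 of the 10 genes rose from P4 to P28, against 33.7% of all genes, the exceptions being Ldhb (0.80 ± 0.22, adjusted p = 0.0122) and Slc16a7 (-0.28 ± 0.29, adjusted p = 0.419). Of the 8, Mpc1 and Pdha1 had 1 peak each, so nothing was summed and their differences are those of the promoter peak. In the fit over peaks, Pdha1 did not pass from P4 to P28 (adjusted p = 0.0136) or from P10 to P28 (0.0317). Its calls here come from the refit over gene symbols, not from added reads. From P4 to P10, 3 rose (Ldha, Slc16a1 and Pdk2), against 16.5% of genes, and 1 (Ldha) without either P4 library (4.49% and 5.28%). From P10 to P28, 1 rose (Pdha1, 1.64 ± 0.28, adjusted p = 0.00822), against 4.3%, and it passed neither without any 1 of the P4 or P28 libraries (adjusted p from 0.0195 to 0.05) nor under the other scalings.

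The rest of the pathway was followed in 30 further genes, of which 25 had a promoter peak (Pdhx, Pdk4, Pdpr, Slc5a8 and Slc5a12 had none). From P4 to P28, 11 of the 25 rose and none fell, with a median difference of 1.54, beside 33.4% and 1.35 for all promoters. This count rested on the scale, since 1 rose and 2 fell after scaling to reads in peaks, and it was 3 without P4 replicate 2, 5 without P4 replicate 1 or P28 replicate 2, 6 without P28 replicate 3, 7 without P28 replicate 1, and 18 and 17 without P10 replicates 1 and 2. Among all promoters, 7.29% rose with that scaling, 9.33 to 17.5% without any 1 of the P4 or P28 libraries, and 55.3% and 55.5% without P10 replicates 1 and 2. Of the 11, Me1 alone passed scaled to reads in peaks (2.05, adjusted p = 0.00843). Between P4 and P10, 3 rose (Nptn, Me1 and Gpt2) and 1 fell (Emb); without a P4 library none passed, and without a P28 library 1 rose. Among all promoters, 11.6% rose from P4 to P10 and 86 of 9956 fell, and 4.62 to 6.76% rose without a P28 library. None of the 25 passed from P10 to P28, where voom on the recovered reads called 4, beside 4.39% of all promoters. Mpc2, the partner of Mpc1, held 6.88 and 5.81 RPKM at P4 and 30.1, 26.0 and 33.2 RPKM at P28, and rose by 2.06 ± 0.25 (adjusted p = 0.000351; 0.282 at the highest over other settings).

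The companions of monocarboxylate transporters split. Nptn (neuroplastin, of the basigin family, partner of MCT2) rose by 1.90 ± 0.38 from P4 to P10 (adjusted p = 0.00463; 0.0106 to 0.03 without any 1 library except P10 replicate 2) and by 2.58 ± 0.34 from P4 to P28 (adjusted p = 0.000504). Emb (embigin, also a partner of MCT2) held 3.8 and 3.88 RPKM at P4, no read in either P10 library, and 2.44, 2.85 and 3.05 RPKM at P28. It fell by 2.27 ± 0.45 from P4 to P10 (adjusted p = 0.00449; 0.011 to 0.0233 without any 1 of the P4 or P28 libraries), and with 16 reads at P4 against 0 the upper 95% counting bound of the pooled ratio was 0.552. From P4 to P28 its difference was -0.36 ± 0.41 (adjusted p = 0.491), and -1.63 (adjusted p = 0.00907) scaled to reads in peaks. Of 6 other SLC16 promoters, 1 rose from P4 to P28: Slc16a6 rose by 2.18 ± 0.35 by P28 (adjusted p = 0.00124; 0.0166 without P4 replicate 2 and 0.0107 without P28 replicate 2), while Slc16a8 (MCT3, the transporter of the pigment epithelium) was at 0 and 0.94 RPKM at P4 and 1.25, 3.79 and 5.19 RPKM at P28 (1.54 ± 0.76, adjusted p = 0.127). The other 4 did not pass either, at -0.10 for Slc16a9 (adjusted p = 0.864), 1.09 for Slc16a10 (0.0315), 0.55 for Slc16a11 (0.266) and 1.5 for Slc16a13 (0.0251). As 33.4% of all promoters rose from P4 to P28, 1 of 6 was no excess.

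Around pyruvate itself, Pkm (pyruvate kinase M, which makes pyruvate) rose by 2.57 ± 0.39 from P4 to P28 (adjusted p = 0.000943). Of the enzymes that interconvert pyruvate or its products, 2 of 3 malic enzymes, 1 of 2 alanine transaminases, pyruvate carboxylase and ATP citrate lyase rose: Me1 by 2.98 ± 0.37 and Me2 by 1.84 ± 0.29 (malic enzymes), Pcx by 1.60 ± 0.35 (pyruvate carboxylase), Gpt2 by 2.22 ± 0.44 (alanine transaminase) and Acly by 1.93 ± 0.39 (ATP citrate lyase), with adjusted p from 0.000384 to 0.00599. The third malic enzyme, Me3, differed by 0.03 (adjusted p = 0.955) and the other transaminase, Gpt, by 1.17 (adjusted p = 0.146), and neither passed. By the same rule 33.4% of all promoters rose, and families of 2 or 3 are too small to be told from that share. Of the enzymes that rose and Pkm, Me1 alone passed under every other setting. Calls of Pcx, Gpt2 and Acly were lost without any 1 of the P4 or P28 libraries, and those of Me2 and Pkm without P4 replicate 1 or 2. Without P4 replicate 1 or 2 the difference was 1.79 or 1.9 for Me2 and 2.16 or 2.98 for Pkm. The P4 level of Gpt2 rested on 2 reads, a pooled ratio of 12.4 with a counting interval of 3.37 to 103. Of the control of pyruvate dehydrogenase, the kinase Pdk3 rose by 2.83 ± 0.45 (adjusted p = 0.00122; 3 reads at P4, pooled ratio 15.5 with an interval of 5.27 to 75.7) and, of 2 phosphatases, Pdp2 by 2.64 ± 0.59 (adjusted p = 0.00642), while Pdp1 did not pass (1.04, adjusted p = 0.0526). Pdk3 was lost without P4 replicate 2, P28 replicate 2 or P28 replicate 3 (0.0184, 0.0108 and 0.0111), and Pdp2 without any 1 of the P4 or P28 libraries (0.0256 to 0.1). The other subunits of the complex, Pdhb, Dlat and Dld, did not pass, at 1.16, 1.48 and 1.20 (adjusted p = 0.0369, 0.0229 and 0.0535), as Pdha1 did not. Nor did the other lactate dehydrogenase genes, Ldhc (1.68, adjusted p = 0.0141) and Ldhd (1.2, adjusted p = 0.0583).

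Promoters outside this pathway that followed Ldha most closely, by Euclidean distance of log2(RPKM + 1) over the 7 libraries, were Itpk1 (0.40), Adprhl1 (0.41), Atp5mpl (0.44), Lactbl1 (0.47) and Elac1 (0.47). All 5 were at 2.28 RPKM or less in the P4 libraries and at 5.30 RPKM or more in every later library. Within the 10 genes, the nearest to Ldha was Pdk2 (1.24), the nearest to Pdk2 was Slc16a1 (1.02), and the nearest to Bsg was Slc16a1 (1.44). The promoter peaks themselves were like others in base composition: GC content was 55.2 to 65.7% (median 58.9%, against 59.5% for all promoter peaks), and the median width was 1705 bases against 1181.

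Markers of other cells were checked because whole retina was used. Of 5 Mueller glia promoters with a peak 1 rose from P4 to P28. None did of 4 bipolar, 3 retinal ganglion, 3 endothelial, 3 progenitor and cell cycle and 4 pigment epithelium promoters. As 33.4% of all promoters rose, lists this small cannot be told from that share. Summed levels at P4 and P28 were 9.7 to 11 and 18.5 to 23.6 RPKM for Mueller glia. They were 3.8 to 5 and 7.8 to 11.1 for bipolar cells, and 2.8 and 6.2 to 6.9 for the progenitor list. For endothelium they were lower at P28 (6.9 to 9.8 and 3.7 to 5.9), and for ganglion cells they overlapped (5.9 to 8.7 and 3.7 to 6.1). No peak lay in the promoter of any of 5 microglia markers, nor of Rpe65, Tyr, Pmel or Ttr of the pigment epithelium. The summed level of the pigment epithelium list was 8.6 to 9.3 RPKM at P4, 13.4 to 18.4 at P10 and 11.2 to 20.1 at P28, and its part in the Slc16a1 and Bsg results, 2 genes that epithelium also uses, was not tested. Within batch 1 alone, that is without P28 replicate 1, 4 of the 10 promoters passed from P4 to P28 (17.5% of all promoters) and 2 from P4 to P10 (6.76%), with differences from P4 to P28 of 3.17 for Bsg, 3.15 for Slc16a1, 2.84 for Pdk2 and 2.29 for Ldha.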

How the data were processed

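H3K18La CUT&Tag was made from 500000 cells an experiment of dissociated C57Bl/6J mouse retina at P4 (2 libraries), P10 (2 libraries) and P28 (3 libraries, replicate 1 in batch 2). The paper counts 3 replicates where it describes its consensus peaks, while the labels list 2 libraries each for P4 and P10. The authors ran nf-core/cutandrun 3.1 on GRCm38, called peaks with MACS (q beyond 1e-06 in at least 2 replicates), removed blacklisted regions, merged the peaks of the 3 ages, annotated them with ChIPseeker 1.34.1 on Ensembl 102 (promoter: -1000 to 500 bases from a start) and counted reads with csaw 1.32.0, normalised over windows of 10000 bases. The deposited values are RPKM per peak and library, computed by the authors on these normalised library sizes. Their edgeR 3.40.2 comparison table (fold changes against P4 with p-values) was not used.

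RPKM are not counts, so limma 3.58.1 (R 4.3.3) was fitted with a variance trend to log2(RPKM + 1) over all peaks and 7 libraries, without a filter, with calls at an adjusted p under 0.01 (Benjamini-Hochberg over all peaks). Fold changes on this scale understate the change of low peaks. The fit was tested on simulated data, and the outcome of that test is not given here. Steps in the values gave whole reads for 100.0% of values within a tolerance of 0.02, and reads, pooled ratios and their exact conditional 95% intervals come from these. Reads carry no molecular identifiers, so intervals and the floor of 3 reads cover counting error only. A gene's promoter peak was the promoter-class peak nearest its start, the wider one in a tie. Gene-wide values summed the reads of a gene's peaks. Ratios within libraries were compared by exact two-sided permutation tests (Python 3.11.15, scipy 1.17.1).

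Named were the 10 genes, their other peaks called in any comparison (at most 3 a gene), the 5 promoters nearest to Ldha and each gene's nearest other member, and, of 30 further pathway genes, those called from P4 to P28 with Slc16a8, Emb, Mpc2, Pkm and Pdk4; other members of a family or complex with a called gene (SLC16 genes, Me3, Gpt, Pdp1, Pdhb, Dlat, Dld), and Ldhc and Ldhd, were named after their values were seen. The genes, lists and tests were chosen with earlier results of these data known. Alternatives were pseudocounts of 0.1 and 5, a median filter, 3 other scalings, voom on the recovered reads, the replicate number as a block, library weights, a threshold of 0.05, other choices of promoter peak and leaving out each library; those for the further pathway genes were added after the data were seen. Same-numbered libraries did not deviate together, so the block is not part of the test. Sequences are from RefSeq (GRCm38.p6) and positions from GENCODE on GRCm38.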

Additional observations from a re-analysis of the deposited data

How the results depend on the processing

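Bsg, Slc16a1 and Pdk2 from P4 to P28, and the Ldha upstream peak in both comparisons with P4, passed under every setting tried; every other call at a single peak of the 10 genes was lost under at least 1. Summed over their peaks, Ldha in both comparisons with P4, and Slc16a1, Slc16a3, Bsg and Pdk2 from P4 to P28, passed under every setting. Depth at P4 was low, with 8 of the 10 promoters at 10 reads or fewer in both P4 libraries, Bsg, Slc16a1 and Pdk2 among them. The cause of the changes below was not tested. Over all peaks, calls from P4 to P28 split into 20488 higher and 4553 lower as deposited, 7759 and 16246 scaled to reads in peaks, 14172 and 10724 after median centring, and 13683 and 14636 after quantile normalisation.

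Scaled to reads in peaks, the promoters called were 3 higher from P4 to P28, and 0 higher and 1 lower from P4 to P10. The same scaling gave 5 of the 24 peaks higher by P28, 1 higher and 4 lower by P10, 5 genes higher and 1 lower by P28 when peaks were summed, 1 gene lower by P10, and 0 genes from P10 to P28. Among all promoters that scaling left 7.29% higher by P28 and 2.46% by P10. Among all peaks 7.17% and 4.35% were higher, and 17156 of 108253 were lower by P10. Among all genes 11.3% were higher by P28. From P4 to P10, 2 promoters were called with a pseudocount of 0.1, quantile normalisation or library weights, and 3 of the 24 peaks with that pseudocount or weights. In the same order, 9.54%, 2.4% and 4.2% of all promoters and 8.38% and 4.94% of all peaks were higher. Quantile normalisation left 5 genes from P4 to P28, where 19.6% of all genes were higher. At an adjusted p under 0.05, 4 promoters, 4 genes and 8 of the 24 peaks (1 more lower) passed from P10 to P28. The shares higher among all promoters, genes and peaks were then 15.2%, 19.2% and 10.1%. At that threshold 3 of the 24 peaks were lower from P4 to P10, as were 14681 of all 108253. With voom 1 peak was called higher and 1 lower from P10 to P28, beside 2.17% of all peaks higher. Summed genes from P10 to P28 numbered 0 with a pseudocount of 0.1, median centring, quantile normalisation or weights, and 4 with a pseudocount of 5 or the median filter. Of all genes, 7.67% and 7.32% were higher under the latter pseudocount and filter, and 0.0197 to 2.04% under the others.

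Of the 25 further pathway promoters, those called higher from P4 to P28 were 7 with a pseudocount of 0.1, 17 with weights, 1 scaled to reads in peaks (2 lower) and 5 after quantile normalisation (2 lower). From P4 to P10 they were 0 higher and 2 lower under both these scalings, 1 and 0 with weights, and 6 higher at 0.05. From P10 to P28 they were 2 with a pseudocount of 5, 1 after centring, 4 with voom and 8 at 0.05. Of all promoters, those higher from P4 to P28 were 22.7%, 57.1%, 7.29% and 16.9%, with the settings in the order given. From P4 to P10 they were 2.46% and 2.4% under the scalings, 4.2% with weights and 24.3% at 0.05. From P10 to P28 they were 2.45%, 1.07%, 4.39% and 15.2%, again in the order given.

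Leaving out 1 library at a time gave 3 to 8 promoters from P4 to P28, 0 to 4 from P4 to P10 and 0 to 2 from P10 to P28. For the 24 peaks it gave 4 to 11, 1 to 6 (0 to 1 lower) and 0 to 4 (0 to 1 lower), for summed genes 6 to 9, 1 to 4 and 0 to 4, and for the further pathway 3 to 18, 0 to 4 (0 to 1 lower) and 0 to 8. The replicate number as a block, which does not pair the libraries (correlation of same-numbered deviations -0.001 to 0.047), gave 4, 4 and 0 promoters, 7, 5 and 0 of the 24 peaks, 6, 3 and 0 summed genes, and 7, 3 and 0 higher and 0 lower of the further pathway, and moved the difference in the Ldha to Ldhb ratio from P4 to P28 to 1.28. With the block, 18.6% of all promoters, 11.4% of all peaks and 21.3% of all genes were higher by P28. By P10 these shares were 9.61%, 9.56% and 12.4%.

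Signs turned at differences that had not passed; of those that had, the summed Mpc1 difference from P4 to P28 came to 0.00 (adjusted p = 0.986) after quantile normalisation and 0.12 (0.591) scaled to reads in peaks. Scaled to reads in peaks they were, at promoters, -0.07 for Ldha (P10 to P28), -0.45 for Ldhb and -1.15 for Slc16a7 (P4 to P28), -0.15 for Slc16a3 and -0.75 for Mpc1 (P4 to P10), -0.05 for Slc16a7 (P10 to P28) and -0.35 for the Slc16a1 exon peak (P4 to P10). Summed over a gene they were -0.40 and -0.59 for Ldhb (P4 to P28 and to P10), -0.06 for Slc16a3 and -0.75 for Mpc1 (P4 to P10), and -0.04 for Slc16a7 (P10 to P28). Median centring gave -0.17 for Ldha and -0.18 for Slc16a7 (P10 to P28), -0.49 for Slc16a7 and -0.09 for the Ldhb intergenic peak (P4 to P28), and summed -0.04 for Ldhb and -0.29 for Slc16a7 (P10 to P28). Quantile normalisation gave -0.28 for Ldhb and -0.80 for Slc16a7 (P4 to P28), -0.08 for Slc16a7 (P10 to P28) and -0.58 for Mpc1 (P4 to P10), and summed -0.13, -0.12 and -0.02 for Ldhb (P4 to P28, P4 to P10, P10 to P28), -0.25 for Slc16a7 (P10 to P28) and -0.63 for Mpc1 (P4 to P10). For Slc16a7 from P4 to P28, voom gave -0.03, the block -0.06 and weights -0.01, and voom gave -0.01 from P10 to P28; for Pdha1 from P4 to P10 voom gave 0.10, and 0.09 summed. Without 1 library at a time the ranges that crossed 0 or reached it were, at promoters, -0.37 to 0.58 for Ldha (P10 to P28), -0.06 to 0.08 and -0.13 to 0.00 for Slc16a7 (P4 to P28 and P4 to P10), -0.39 to 0.23 for Pdha1 (P4 to P10, also when summed) and -0.24 to 1.13 for the second Slc16a3 peak (P4 to P10). Summed they were -0.57 to 0.02 for Ldha (P10 to P28) and -0.61 to 0.04 and -0.01 to 0.21 for Slc16a7 (P4 to P28 and P10 to P28), and for log2 ratios from P10 to P28 -0.88 to 0.11 (Slc16a1 to Slc16a3) and -0.22 to 0.49 (Pdk1 to Pdk2).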
